A study of Mus musculus with 8 samples.

Results

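The serpin genes are described here in tumor and in small intestine of Apc mutant mice. Members were the protein-coding genes whose symbol begins with Serpin, a clade letter from a to i and a number, which gave 61 of the 43629 genes counted. A further 7 serpin symbols were left out as pseudogenes. Clade A has 24 members, clade B 26, clade E 3, clades F and I 2 each, and clades C, D, G and H 1 each. The series measured polyadenylated RNA in 4 tumor and 4 small intestine libraries, all from untreated mice labelled APC mutant on a C57B6/129 background. Apc restrains Wnt signalling, and mice that carry such a mutation develop intestinal tumors. The labels give no age, no Apc allele and no mouse identity, so p-values measure the spread between these libraries, which may be technical. In bulk tissue, fewer cells of a type and less RNA per cell cannot be told apart.

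Serpins fold around an exposed reactive centre loop that a protease takes for a substrate. Cleavage springs the loop into a sheet of the serpin, and the protease is dragged along and trapped, so each molecule of inhibitor is used once. Clade A holds secreted plasma inhibitors of the antitrypsin and antichymotrypsin kind, and clade B holds mostly intracellular inhibitors. The other clades hold inhibitors of clotting, fibrinolysis and complement, and some members that have lost inhibition, such as the collagen chaperone Serpinh1.

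The tissues differed in which serpins they held. In tumor 16 members were higher and 5 lower, among 30 with enough counts to test (edgeR quasi-likelihood F test, p adjusted by Benjamini and Hochberg's method over all genes, threshold 0.05). The 2 most abundant members, Serpinb1a and Serpinb6a, were both lower in tumor. Serpine2, Serpinh1, Serpina3n, Serping1 and Serpinb11 were among the higher ones. Called members made up 70% of those tested, against 74.3% of all 17029 genes tested, so the share called was near the background. By direction, 53.3% of tested members were higher, against 38.9% of all genes, and 16.7% were lower, against 35.4% of all genes. The median log2 fold change, tumor minus small intestine, was 1.40 over the 30 tested members and 0.07 over all genes tested. The groups did not overlap in 18 of the 30 members (60%), against 70.4% of all genes. All CPM (counts scaled to the size of the library) given here are scaled by trimmed means (TMM). With library totals in place of TMM, 22 of the 30 members were higher, against 62% of all genes. Again 5 (16.7%) were lower, near the 17.6% of all genes. The share of lower members was thus below that of all genes with TMM, but near it with library totals. That choice shifted the all-gene median up by 0.86 (log2). None of the 21 called members changed sign between these scalings.

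Library totals ran from 53856561 to 67371180 counts for tumor and from 62347648 to 84433335 for small intestine, so 3 counts, the floor used for a gene with none, correspond to 0.0331 to 0.0630 CPM. Of the 61 members 11 had no count in any library, and another 20 had too few to test, with a mean of at most 0.448 CPM in either tissue. The labelled tissues were set against marker lists. Summed CPM of 10 enterocyte markers was 771 to 1123 in tumor and 60236 to 74844 in small intestine, and all 10 were lower in tumor. Endothelial markers were higher in 7 of 7 cases and fibroblast markers in 5 of 7, with 1 lower. Stomach epithelium markers, at 144 to 362 CPM in tumor against 0.248 to 0.555 in small intestine, were higher in 7 of 8 tested.

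**Figure D1:**
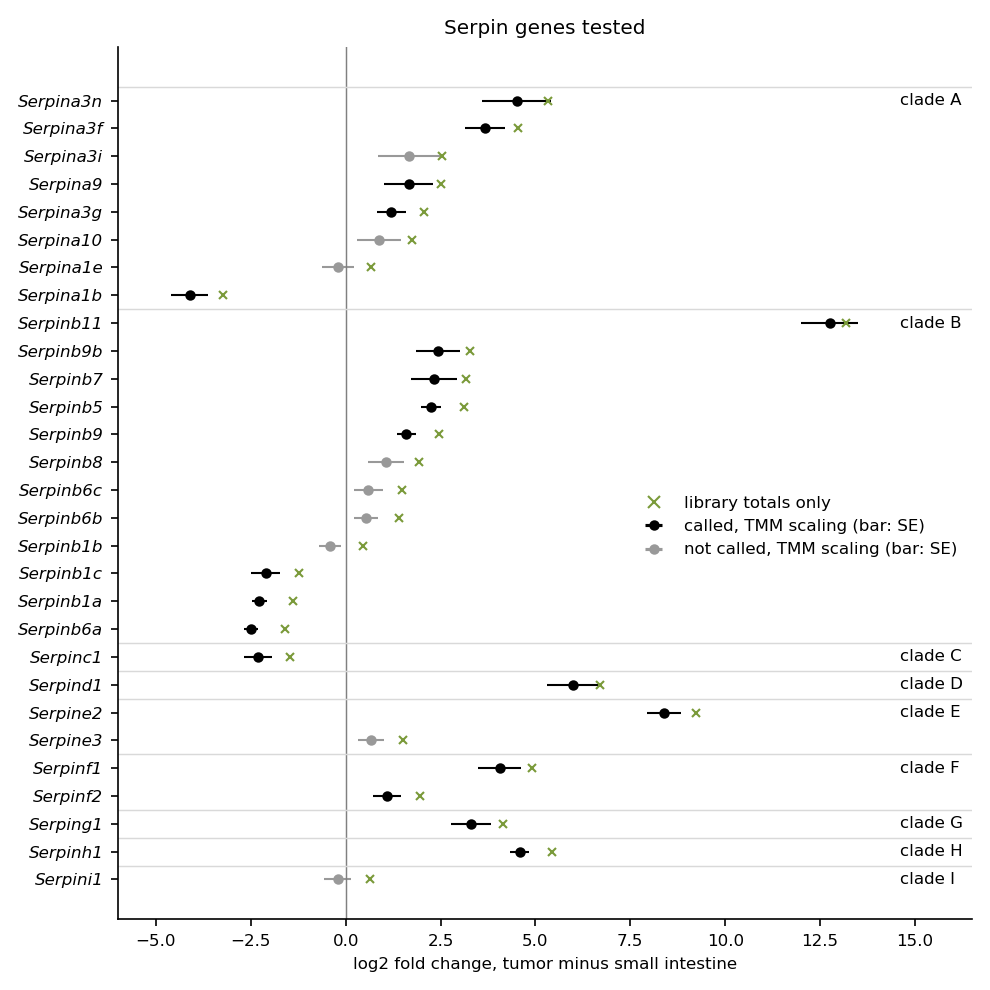
Log2 fold change, tumor minus small intestine, of serpin genes tested, by clade. Circles with bars are TMM values ± SE (black where called, grey where not), and crosses are values with library totals, which lie to the right of the circles for each gene drawn; the Serpinb11 position depends on the prior count, since small intestine held no count.

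Serpinb1a and Serpinb6a carried most of the serpin message in small intestine. Serpinb1a, an intracellular inhibitor of neutrophil elastase-like proteases (chromosome 13, 32842092 to 32851185, GRCm38, minus strand), stood at 297, 298, 327 and 247 CPM in tumor replicates 1 to 4, against 985, 1518, 1336 and 1826 CPM in small intestine replicates 1 to 4. The tumor libraries lay close together and all below the small intestine libraries. The log2 fold change was -2.28 ± 0.20 (SE), with an edgeR adjusted p of 6.45e-06. Serpinb6a, an intracellular inhibitor of trypsin-like proteases and cathepsin G, had 179.7, 197, 196 and 147 CPM in tumor, against 898, 995, 789 and 1356 CPM in small intestine. Again the groups did not overlap, and the log2 fold change was -2.49 ± 0.19 (edgeR adjusted p = 2.86e-06). Serpinb6a (chromosome 13, 33917918 to 34002794, minus strand) overlaps exons of Nqo2, Ripk1 and 1110046J04Rik on the opposite strand. Without a known strand setting, reads in those overlaps cannot be told apart.

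Levels of different members were compared per transcript length. Of the summed FPKM (fragments scaled for length and library size, as deposited) of all members, Serpinb1a and Serpinb6a together took 51.5, 53.9, 61.6 and 48.0% in the tumor libraries, against 94.5, 95.7, 97.4 and 96.6% in the small intestine libraries. In tumor the remainder was spread over several members. Serping1 took 12.1 ± 5.01% in tumor and 0.455 ± 0.350% in small intestine (SD, n = 4 each), and Serpina3n took 6.80 ± 3.37% in tumor and 0.118 ± 0.110% in small intestine. Serpine2 took 5.75 ± 1.63% in tumor and 0.00857 ± 0.0059% in small intestine. Members at 1 FPKM or more numbered 16, 17, 17 and 17 in the tumor libraries and 11, 10, 7 and 7 in the small intestine libraries. The effective number of members (inverse Simpson index of the shares) was 5.59 ± 0.596 in tumor and 2.15 ± 0.0549 in small intestine. Summed serpin FPKM was 617 ± 32.3 in tumor and 949 ± 184 in small intestine. The deposited FPKM are not scaled by TMM. On log2(FPKM + 1) the change of Serpinb1a was -1.33, nearer to -1.40 with library totals than to -2.28 with TMM. Numbers of members at 1 FPKM or more and summed FPKM therefore depend on the scaling between tissues, while shares within a library do not. The ratio of Serpinb6a to Serpinb1a FPKM was 0.830 ± 0.0398 in tumor and 0.988 ± 0.185 in small intestine, and the ranges of this ratio overlapped. Enterocyte markers were lower in tumor as well, as given above. So were 7 of 7 enteroendocrine, 5 of 7 goblet and 7 of 7 tested T and NK cell markers. Paneth cell markers were lower in 4 of 7 cases and higher in 2. The part of these cells in the fall of Serpinb1a and Serpinb6a was not tested.

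**Figure D2:**
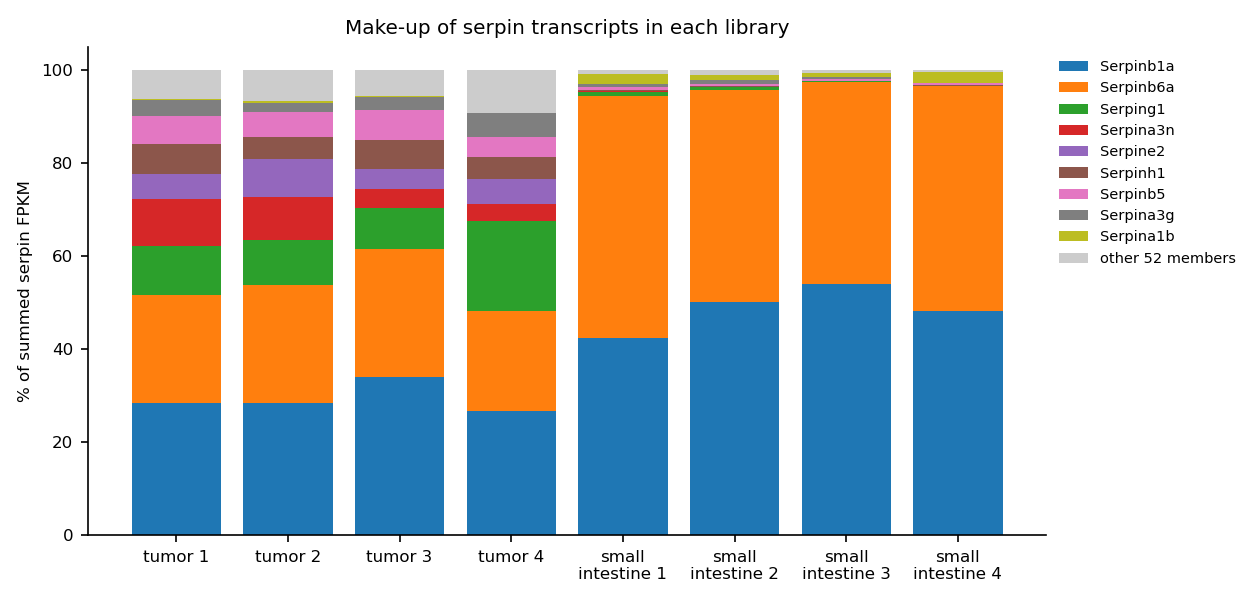
Share of the summed FPKM of all 61 serpins taken by 9 members and by the rest, in each library (vertical axis in percent, tumor libraries on the left). Serpinb1a and Serpinb6a fill 48.0 to 61.6% of each tumor bar and 94.5 to 97.4% of each small intestine bar.

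The other clade B members on chromosome 13 went both ways. Serpinb9 (33003250 to 33017957, plus strand), the cytosolic inhibitor that protects cells from granzyme B, stood at 12.8, 11.5, 11.2 and 18.5 CPM in tumor, against 4.37, 6.37, 3.97 and 3.29 CPM in small intestine. Every tumor library was above every small intestine library, with a log2 fold change of 1.59 ± 0.25 and an edgeR adjusted p of 0.000304. Its relative Serpinb9b was scarce, at 0.320 ± 0.112 CPM in tumor against 0.0567 ± 0.0389 in small intestine (n = 4 each, SD), with a fold change on the log2 scale of 2.42 (edgeR adjusted p = 0.00402). Exons of Serpinb9b overlap Gm36099 on the opposite strand. Serpinb1c fell by 2.11 on the log2 scale, at 0.121 ± 0.0121 CPM in tumor against 0.524 ± 0.249 in small intestine (edgeR adjusted p = 0.000822). Its deposited FPKM in small intestine was 0 in each library, so the count and FPKM tables differ for this gene. Serpinb1b (0.540 ± 0.0974 CPM in tumor, 0.720 ± 0.219 in small intestine), Serpinb6b (4.97 ± 1.5 in tumor, 3.43 ± 1.31 in small intestine) and Serpinb6c (0.343 ± 0.122 in tumor, 0.226 ± 0.0699 in small intestine) did not pass with TMM. Serpinb6b was called under 5 of its 19 alternatives, at 1.40 with library totals and 0.82 without small intestine replicate 2 (adjusted p 0.00284 to 1 over edgeR and limma alternatives). Serpinb6c was called under 2 of 16, at 1.48 with library totals (adjusted p 0.000319 to 0.986 over edgeR and limma alternatives). The 15 genes of this cluster span 1161 kb, and of the 8 tested 2 were higher and 3 lower, against 38.9% and 35.4% of all genes. Serpinb6d and Serpinb6e held 6 and 7 counts over all 8 libraries and Serpinb9e 1, and Serpinb9c, Serpinb9d, Serpinb9f and Serpinb9g held none.

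The clade B cluster on chromosome 1, 11 genes over 749 kb, held 4 tested genes, 3 of them higher, against 38.9% of all genes. Serpinb5 (106861173 to 106883348, plus strand), known as maspin and described in human mammary epithelium as a tumor suppressor that lacks protease inhibition, had 56.6, 53.3, 59.6 and 39.4 CPM in tumor, against 12, 12, 5.96 and 14.2 CPM in small intestine. All tumor libraries lay above all small intestine libraries (log2 fold change 2.24 ± 0.26, edgeR adjusted p = 3.56e-05). Serpinb11 (chromosome 1, 107361198 to 107380475, plus strand) had 11, 13, 6.83 and 19.2 CPM in tumor and no count in any small intestine library. Its 4237 counts over the tumor libraries make it at least 227-fold higher, with a floor of 3 counts per small intestine library (edgeR adjusted p = 1.1e-05). Serpinb7, known from human skin, was at 0.189 ± 0.0577 CPM in tumor against 0.0364 ± 0.0284 in small intestine, or on the log2 scale a change of 2.33 (edgeR adjusted p = 0.00647). Serpinb8, at 0.965 ± 0.293 CPM in tumor against 0.461 ± 0.316 in small intestine, did not pass with TMM. It was called under 3 of its 16 alternatives, at 1.92 with library totals and 1.58 without small intestine replicate 2 (adjusted p 0.00049 to 0.446 over edgeR and limma alternatives). Serpinb2 held 34 counts and Serpinb12 24 counts over the tumor libraries and both held 0 in small intestine, at least 1.84-fold and 1.33-fold higher. Exons of Serpinb2 overlap Serpinb10 on the same strand, so its counts are uncertain. Serpinb13 and the 4 Serpinb3 genes, whose human relatives are made by squamous epithelium, had no count in any library. Summed CPM of 10 squamous markers was 70.1 to 112 in tumor and 4.24 to 6.30 in small intestine, with 7 of 8 tested higher and 1 lower, and their part in these clade B values was not tested.

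**Figure D3:**
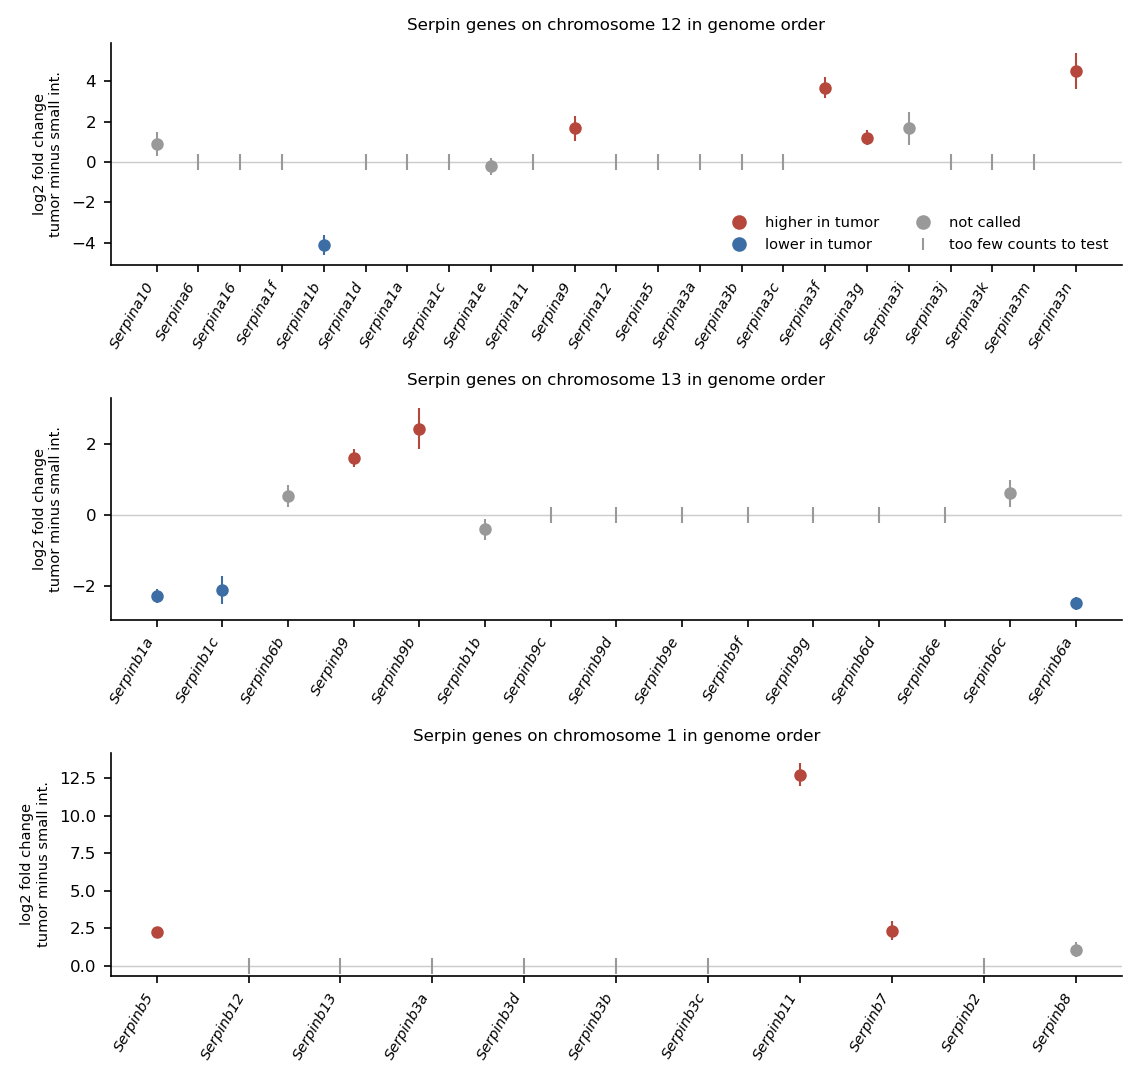
Log2 fold change, tumor minus small intestine (bars, SE), of the serpin genes in the chromosome 12, 13 and 1 clusters, in genome order. Red points are higher in tumor, blue lower, grey not called, and ticks mark genes with too few counts to test; neighbours such as Serpinb1a and Serpinb9 on chromosome 13 lie on opposite sides of 0, and the Serpinb11 value is no bound.

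The reactive loop is where these members differ as inhibitors, and its coding sequence is shown for 7 of the members described in full, from GENCODE transcripts on GRCm38. Each stretch has 72 bases, 24 codons ending past the bond that the protease cuts, and capitals mark the 8 codons of the hinge, whose small residues let the loop insert into the sheet:
Serpinb1a: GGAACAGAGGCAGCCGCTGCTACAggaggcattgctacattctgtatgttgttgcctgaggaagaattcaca
Serpinb6a: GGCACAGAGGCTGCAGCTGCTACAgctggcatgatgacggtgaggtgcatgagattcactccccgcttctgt
Serpinb9: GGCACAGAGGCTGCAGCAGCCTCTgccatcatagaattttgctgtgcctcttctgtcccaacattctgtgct
Serpinb11: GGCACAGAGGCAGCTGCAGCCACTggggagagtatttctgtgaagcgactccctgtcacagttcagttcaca
Serpina3n: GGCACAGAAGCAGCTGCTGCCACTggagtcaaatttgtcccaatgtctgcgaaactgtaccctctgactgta
Serpine2: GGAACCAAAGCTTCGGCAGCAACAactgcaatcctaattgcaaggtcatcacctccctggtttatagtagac
Serping1: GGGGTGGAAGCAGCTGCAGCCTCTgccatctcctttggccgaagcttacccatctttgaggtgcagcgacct
The letters after the hinge encode the part of the loop that meets the protease. Serpinb1a and Serpinb6a were lower in tumor and the other 5 higher.

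In clade A, 3 of the 4 Serpina3 genes tested were higher in tumor, against 38.9% of all genes. Of the Serpina1 copies, Serpina1b was lower. The Serpina3 genes are the mouse copies of antichymotrypsin. Serpina3n (chromosome 12, 104406729 to 104414329, plus strand), an acute-phase inhibitor, had 132, 116, 49.7 and 42.4 CPM in tumor, against 6.80, 6.42, 1.53 and 0.138 CPM in small intestine. Replicates 1 and 2 were the higher ones in each tissue, and the groups did not overlap. The log2 fold change was 4.51 ± 0.91, with an edgeR adjusted p of 0.00141. Serpina3f had 11.4, 9.81, 9.02 and 27.7 CPM in tumor, against 0.868, 1.84, 1.36 and 0.483 CPM in small intestine. Tumor replicate 4 stood above the other tumor libraries, and the log2 fold change was 3.67 ± 0.52 (edgeR adjusted p = 0.000146). Serpina3g, an intracellular member found in haematopoietic cells, had 32.8, 17.1, 25.8 and 40.9 CPM in tumor, against 13, 21.7, 9.91 and 6.38 CPM in small intestine. Here the groups overlapped, and the log2 fold change of 1.20 ± 0.38 passed the test (edgeR adjusted p = 0.0169) but not a test against a minimum fold of 2 (edgeR adjusted p = 0.272, the highest over its 19 alternatives, the lowest being 0.000828). Serpina3i, at 0.502 ± 0.126 CPM in tumor against 0.154 ± 0.218 in small intestine, did not pass with TMM, at 1.67 on the log2 scale. Small intestine replicate 2 decided this value: without it the log2 fold change was 3.33 and was called, as it was under 3 of 16 alternatives in all (adjusted p 0.00183 to 0.258 over edgeR and limma alternatives). Of 50-base windows of these transcripts, 93.1% for Serpina3n, 89.4% for Serpina3f and 84.5% for Serpina3g occur in no other gene, so a minority of reads could be shared.

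Serpina1b, a mouse copy of alpha-1-antitrypsin, the plasma inhibitor of neutrophil elastase, had 2.98, 3.03, 1.51 and 1.21 CPM in tumor, against 36.4, 28.2, 17.6 and 68.3 CPM in small intestine. Every tumor library was below every small intestine library, with a log2 fold change of -4.11 ± 0.49 (edgeR adjusted p = 4.84e-05). Its neighbour Serpina1e had 1.28, 2.08, 3.30 and 1.78 CPM in tumor, against 2.36, 3.54, 0.966 and 2.88 CPM in small intestine. These ranges overlapped, and its log2 difference of -0.21 ± 0.42 missed the threshold (edgeR adjusted p = 0.663). Within each library, the log2 ratio of Serpina1b to Serpina1e counts (0.5 added) was 0.02 ± 1.06 in tumor and 3.92 ± 0.67 in small intestine (SD, n = 4 each). That difference of -3.90 had an exact 2-sided permutation p of 0.0286, the smallest that 4 libraries against 4 allow, for a pair chosen after its values were seen. The scarcer copies were too low to test. Serpina1c held 1 count in tumor and 45 in small intestine, summed over the 4 libraries of each (ratio 0.0147, 95% exact binomial interval 0.000365 to 0.0863), and Serpina1a held 2 in tumor and 21 in small intestine (ratio 0.0631, interval 0.00717 to 0.258). Serpina1d, with 0 counts in tumor and 51 in small intestine, was at least 6.26-fold lower, and Serpina1f, with 0 in tumor and 102 in small intestine, at least 12.3-fold lower. The annotated Serpina1b gene, 103728156 to 103830373 on the minus strand, spans the whole of Serpina1d (103763594 to 103773592). Alpha-1-antitrypsin is chiefly a liver product that enterocytes also make. Among 10 hepatocyte markers, summed at 73.8 to 237 CPM in tumor against 174 to 322 in small intestine, 2 of 7 tested were higher and 2 lower and Fgg had no count. Enterocyte, enteroendocrine, goblet and T and NK cell markers moved mostly in the direction of Serpina1b, and their part in its change was not tested.

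Serpina1a, Serpina1b, Serpina1c, Serpina1d and Serpina1e are near-identical, which limits how far their reads can be told apart. Their coding stretches over the reactive loop (72 bases, bases 1090 to 1161 of a 1242-base coding sequence, GENCODE transcripts on GRCm38) are printed because they hold most densely what separates the copies, and capitals mark bases that differ from Serpina1b:
Serpina1b: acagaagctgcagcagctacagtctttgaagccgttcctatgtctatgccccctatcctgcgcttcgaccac
Serpina1a: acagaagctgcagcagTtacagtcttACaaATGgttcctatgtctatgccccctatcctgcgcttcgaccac
Serpina1c: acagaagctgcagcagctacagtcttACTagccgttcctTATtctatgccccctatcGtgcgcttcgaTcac
Serpina1d: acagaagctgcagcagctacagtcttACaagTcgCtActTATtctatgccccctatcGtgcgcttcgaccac
Serpina1e: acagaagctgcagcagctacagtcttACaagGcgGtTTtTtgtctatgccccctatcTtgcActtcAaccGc
Serpina1e differed from Serpina1b at 11 bases of the stretch (15.3%) and at 35 of the 1170 coding bases outside it (2.99%), an identity of 96.3%. The copy with 6 differences in the stretch is Serpina1a. Of 50-base windows, 70.5% of Serpina1b and 65.4% of Serpina1e occur in no other gene, against 20.7% for Serpina1c, 42.4% for Serpina1a and 49.1% for Serpina1d. The values of Serpina1a, Serpina1c and Serpina1d are therefore uncertain, and how multiply matching reads were treated is not given in the sources used here. For Serpina1f, which was not aligned here, 100% of 50-base windows occur in no other gene.

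The promoters of Serpina1b and Serpina1e were compared because the genes differ in level and not much in sequence. RefSeq windows on GRCm38.p6 reach from 250 bases before to 50 after the start, chr12:103738140-103738439 and chr12:103956848-103957147, both minus strand, and capitals mark a run of 12 letters that begins with the core GTTAAT of hepatocyte nuclear factor 1 type motifs:
Serpina1b promoter: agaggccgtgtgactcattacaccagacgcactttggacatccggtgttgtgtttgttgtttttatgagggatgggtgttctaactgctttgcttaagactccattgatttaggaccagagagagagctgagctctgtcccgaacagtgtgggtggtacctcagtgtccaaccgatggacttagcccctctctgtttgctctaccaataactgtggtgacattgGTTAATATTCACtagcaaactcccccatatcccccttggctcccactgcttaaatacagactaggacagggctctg
Serpina1e promoter: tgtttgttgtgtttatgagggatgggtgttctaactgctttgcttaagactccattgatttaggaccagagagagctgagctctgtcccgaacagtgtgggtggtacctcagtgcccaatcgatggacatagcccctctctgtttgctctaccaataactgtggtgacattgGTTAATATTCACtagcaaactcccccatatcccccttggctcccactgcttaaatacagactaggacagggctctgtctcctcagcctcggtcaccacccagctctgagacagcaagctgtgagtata
Over 250 aligned bases 244 were identical, with 4 mismatches and 2 gaps. Both windows lie inside the annotated genes, which on the minus strand begin further upstream, at 103830373 for Serpina1b and 103958975 for Serpina1e. Which start gave the transcripts counted here was not tested. The run was taken from the Serpina1b promoter itself. Searched on both strands, it occurs in 5 of 32851 promoters, those of Serpina1a, Serpina1b, Serpina1c, Serpina1d and Serpina1e. Finding it in copies of the gene it was taken from is no test of a motif. The core GTTAAT alone occurs in 7.10% of all promoters and in 12 of the 61 promoters known for 52 members. Those 12 include the 5 Serpina1 copies, which are not independent. Both genes hold the run. Per length, Serpina1b stood at 1.74 ± 0.687 FPKM in tumor against 15.7 ± 8.22 in small intestine. Serpina1e stood at 1.48 ± 0.592 FPKM in tumor against 0.975 ± 0.435 in small intestine. These FPKM are not scaled by TMM.

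The remaining clade A members were low. Serpina10, an inhibitor of clotting factor X, was at 0.843 ± 0.401 CPM in tumor against 0.456 ± 0.319 in small intestine and did not pass with TMM, but was called under 2 of its 16 alternatives, library totals being 1 (adjusted p 0.0187 to 0.642 over edgeR and limma alternatives). Serpina9, known from human germinal centre B cells, was at 0.610 ± 0.320 CPM in tumor against 0.189 ± 0.153 in small intestine, or on the log2 scale a change of 1.66 (edgeR adjusted p = 0.0392) that 7 of 16 alternatives did not call (adjusted p 0.00641 to 0.164). Without small intestine replicate 1 it was 2.31. Exons of Serpina9 overlap Gm28577 on the same strand, so its counts are uncertain. Serpina6 and Serpina7, the carriers of corticosteroids and of thyroxine, held 18 and 20 counts over the tumor libraries and 0 in small intestine, which makes Serpina7 at least 1.1-fold higher. Serpina12 held 11 counts in tumor and 29 in small intestine, Serpina11 9 in tumor and 14 in small intestine, and Serpina3c 12 in tumor and 8 in small intestine. Serpina5 held 13 counts in tumor, and Serpina16, Serpina3a, Serpina3j, Serpina3k and Serpina3m held 1 to 4 over all 8 libraries. Serpina3b had none. On chromosome 12, 23 clade A genes lie within 800 kb. Of the 8 tested 4 were higher and 1 lower, against 38.9% and 35.4% of all genes.

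In clade E, Serpine2 had the largest log2 fold change of the 28 members tested that held more than 3 counts in each tissue. Serpine2 is protease nexin, which inhibits thrombin, plasmin and urokinase at cell surfaces (chromosome 1, 79794197 to 79861180, minus strand). It had 64.8, 92.8, 49.1 and 60.6 CPM in tumor, against 0.122, 0.194, 0.441 and 0.0690 CPM in small intestine. No small intestine library came near the tumor range. The log2 fold change was 8.38 ± 0.45 (edgeR adjusted p = 3.34e-07), and 9.01 without small intestine replicate 3. Serpine3, at 0.5 ± 0.103 CPM in tumor against 0.316 ± 0.118 in small intestine, did not pass with TMM, but was called under 3 of its 16 alternatives, library totals and the fit without small intestine replicate 3 among them (adjusted p 0.000567 to 0.953 over edgeR and limma alternatives). Exons of Serpine3 overlap Ints6 on the opposite strand, so its counts are uncertain.

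The plasminogen activators, which Serpine2 inhibits, were higher too. Plat, tissue plasminogen activator, was at 753 ± 185 CPM in tumor against 12.1 ± 6.07 in small intestine (n = 4 each, SD), with a fold change on the log2 scale of 5.96. Plau, urokinase, showed 5.92, its receptor Plaur 2.99 and the thrombin cofactor Thbd, thrombomodulin, 5.23. Plasminogen itself, Plg, fell by 3.93, at 0.0391 ± 0.0316 CPM in tumor against 0.623 ± 0.330 in small intestine. Of the 8 genes in this list 4 were higher and 3 lower, against 38.9% and 35.4% of all genes, and the median was 2.11. Fibroblast and endothelial markers moved with Serpine2, summed at 316 to 399 and 191 to 248 CPM in tumor and at 11.7 to 44.0 and 9.11 to 26.6 CPM in small intestine, and their part was not tested.

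Among inhibitors of clotting and of fibrinolysis, Serpind1 and Serpinf2 were higher in tumor, and Serpinc1, whose counts are uncertain, was lower. Serpinc1, antithrombin, was at 0.155 ± 0.0582 CPM in tumor against 0.768 ± 0.258 in small intestine, or on the log2 scale a change of -2.31 (edgeR adjusted p = 0.000377). Its exons overlap Zbtb37 on the opposite strand and 66.4% of its 50-base windows occur in no other gene, so its counts are uncertain. Serpind1, heparin cofactor, which inhibits thrombin, held 131 counts over the tumor libraries and 1 in small intestine, a ratio of 86.8 (95% exact binomial interval 15.3 to 3454). Serpinf2, the inhibitor of plasmin, had 4.43, 4.93, 5 and 1.67 CPM in tumor, against 1.72, 1.26, 2.10 and 2.38 CPM in small intestine. Tumor replicate 4 lay within the small intestine range. Its log2 fold change of 1.10 ± 0.37 (edgeR adjusted p = 0.0216) was not called under 6 of 19 alternatives (adjusted p 0.000618 to 0.360). In the thrombin and coagulation list 7 of 10 tested genes were higher and 1 lower, with a median of 3.14. Of all genes tested, 38.9% were higher and 35.4% lower. F13a1, a fibrin cross-linker of macrophages and platelets, showed a log2 fold change of 9.29, the cofactor gene F5 7.25 and tissue factor, F3, 4.48, while the protease-activated receptor gene F2rl1 fell by 1.69. Macrophage markers were higher in all 6 tested, with a median of 2.01, and their part in the F13a1 value was not tested.

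Serping1, C1 inhibitor, which blocks the first proteases of the complement pathway (chromosome 2, 84765387 to 84775444, minus strand), had 104, 95.8, 79.7 and 173 CPM in tumor, against 19.4, 16.6, 5.75 and 4.04 CPM in small intestine. Every tumor library exceeded every small intestine library, tumor replicate 4 being the highest and small intestine replicates 1 and 2 standing above 3 and 4. The log2 fold change was 3.30 ± 0.52 (edgeR adjusted p = 0.000303). All 6 tested genes of the C1 and lectin-pathway list were higher, against 38.9% of all genes, and their median was 1.66. Of the 6 genes, 3 encode C1q chains, which are not proteases and which macrophages make. Macrophage markers summed to 126 to 207 CPM in tumor against 43.2 to 54.8 in small intestine, with all 6 tested higher, and their part in this list was not tested. Masp1 showed 2.93, C1s1 2.78 and C1ra 2.11. C1s1 had 34.9, 22.7, 34.1 and 46.9 CPM in tumor, against 8.73, 7.59, 2.54 and 1.33 CPM in small intestine, with the same library highest in tumor and the same 2 higher in small intestine. The ratio of Serping1 to C1s1 FPKM was 3.57 ± 0.900 in tumor and 2.78 ± 0.285 in small intestine. Serpinf1, a secreted inhibitor of vessel growth that does not block proteases, had 6.23, 3.50, 4.83 and 2.60 CPM in tumor, against 0.469, 0.354, 0.105 and 0.0862 CPM in small intestine (log2 fold change 4.06, edgeR adjusted p = 0.000136). In small intestine, summed fibroblast markers were 37.9, 44.0, 19.0 and 11.7 CPM in replicates 1 to 4, and endothelial markers 26.6, 22.2, 10.1 and 9.11 CPM. Both sums were higher in the small intestine replicates where Serping1, Serpina3n and Serpinf1 were higher, but Serpine2 was highest in replicate 3, at 0.441 CPM. In tumor replicate 4 fibroblast markers were lowest, at 316 CPM, and endothelial markers highest, at 248 CPM. Serping1 was highest in that library, and Serpina3n and Serpinf1 were lowest. The part of these markers was not tested.

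**Figure D4:**
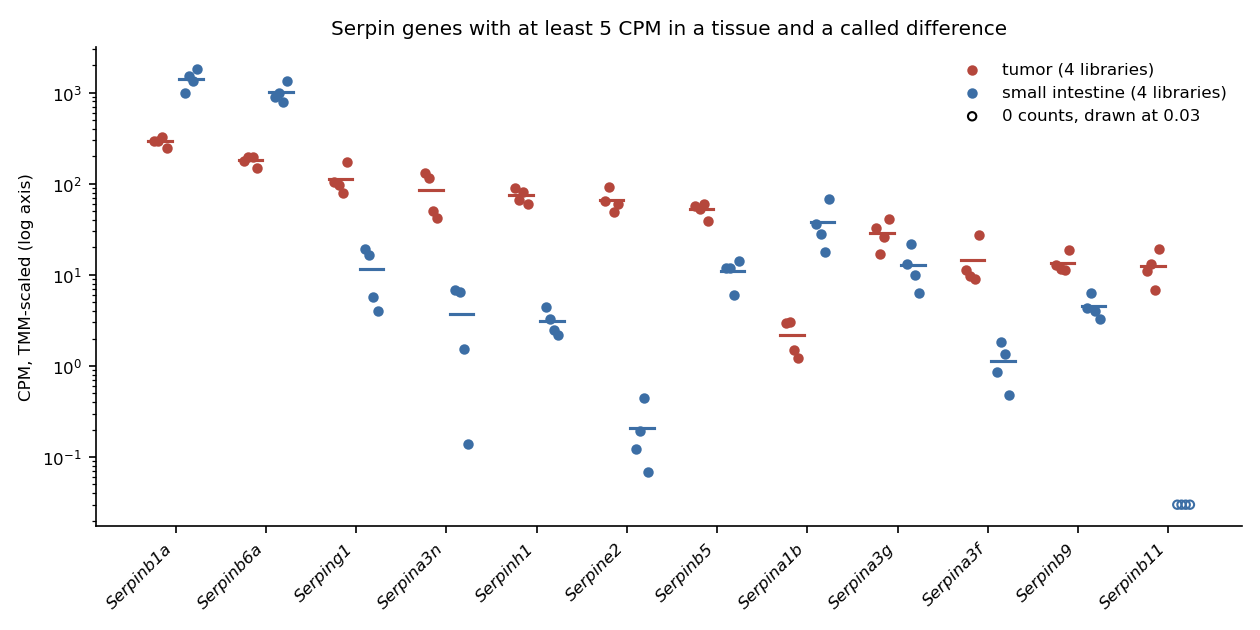
TMM-scaled CPM of the serpin genes described library by library at 5 CPM or more in a tissue, on a log axis, with tumor left of small intestine and each point 1 library. Serpinb1a, Serpinb6a and Serpina1b lie lower in tumor, the others higher, and the groups overlap only in Serpina3g; Serpinb11 has no count in small intestine.

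Serpinh1, the chaperone that binds procollagen in the endoplasmic reticulum (chromosome 7, 99345376 to 99353239, minus strand), had 90.6, 66.9, 80.5 and 59.5 CPM in tumor, against 4.44, 3.25, 2.48 and 2.21 CPM in small intestine. The groups were widely separated, with a log2 fold change of 4.58 ± 0.25 (edgeR adjusted p = 3.99e-07). The fibrillar collagens are its clients. All 6 tested chains were higher, their median being 6.04 on the log2 scale, and Col1a1 was at 455 ± 108 CPM in tumor against 3.99 ± 2.37 in small intestine (SD, n = 4 each). Col5a2 showed 6.23 and Col5a3 6.15. The ratio of Serpinh1 to Col1a1 FPKM was 0.446 ± 0.0417 in tumor and 2.54 ± 0.997 in small intestine. Among 13 collagen chaperones and processing enzymes 9 were higher and 1 lower, with a median of 1.87, and 12 higher and 1 lower with library totals. Of all genes 38.9% were higher and 35.4% lower with TMM, and 62% higher and 17.6% lower with library totals. The prolyl hydroxylase subunits P4ha2 and P4ha3 showed 5.21 and 4.45, the peptidyl-prolyl isomerase gene Fkbp10 4.43, and P4hb, which also serves other proteins, fell by 1.76. Fibroblast markers moved the same way, and their part was not tested. Serpini1, neuroserpin, an inhibitor of tissue plasminogen activator in neurons, was at 1.36 ± 0.369 CPM in tumor against 1.57 ± 0.594 in small intestine and did not pass (log2 fold change -0.21 ± 0.35). Serpini2 had no count in any library.

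Among proteases of white blood cells, transcripts of the neutrophil ones were near 0 and 3 of 5 granzyme and perforin genes were lower in tumor. Transcripts of the neutrophil proteases that Serpinb1a and Serpina1b inhibit were at or near 0 in both tissues. They summed to 0.0451 to 0.196 CPM in tumor against 0 to 0.177 in small intestine, and Elane had no count in tumor. The protease proteins were not measured. Neutrophil markers summed to 14.1 to 70.3 CPM in tumor against 0.588 to 9.85 in small intestine, and all 7 tested were higher. With TMM no granzyme or perforin gene was called higher, and the median was -2.08. Of all genes tested, 38.9% were higher and 35.4% lower with TMM. Library totals called Gzmm higher, at 1.32, and did not call Prf1, at -1.22, and for both genes the groups overlapped. With TMM Gzma had a log2 fold change of -3.97, Gzmb -2.84 and Prf1 -2.08. T and NK cell markers, at 12.7 to 25.2 CPM in tumor against 48.6 to 189.6 in small intestine, were lower in all 7 tested. Mast cell markers, chymases and tryptases among them, were higher in all 8 tested, with a median of 7.19. They summed to 77, 355, 1917 and 123 CPM in tumor replicates 1 to 4, against 19.2 to 22.1 in small intestine, and tumor replicate 3 stood far above the others. The part of these white cells in the serpin values was not tested. The ratio of Serpinb9 to Gzmb FPKM was 0.685 ± 0.281 in tumor and 0.0347 ± 0.0168 in small intestine. That the groups of this ratio did not overlap follows from the 2 genes, Serpinb9 being higher and Gzmb lower in tumor without overlap. It is no separate result.

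The remaining lists of proteases and of other inhibitors were mixed. Of 8 membrane and channel-activating proteases tested 4 were higher and 3 lower with TMM, but 7 were higher and 1 lower with library totals. Library totals called 62% of all genes higher and 17.6% lower. Prss22 showed a log2 fold change of 6.50, Hpn 4.56 and Prss12 4.36, while Prss23 fell by 3.47. Of the 8 cathepsins 4 were higher and 4 lower with TMM, and 5 higher and 1 lower with library totals. With TMM Ctsk stood at 3.38, Ctsl at 3.24 and Ctss at -1.93. The kallikreins Klk8 and Klk1 fell by 2.45 and 1.43, and Klk1 was not called with library totals, at -0.56. Among inhibitors outside the serpin family, 3 of 11 tested were higher and 5 lower with TMM, and 6 higher and 4 lower with library totals. Timp1, an inhibitor of matrix metalloproteases, showed 7.24, whereas the trypsin inhibitor Spink1 fell by 6.68 and the cysteine protease inhibitor Cst6 by 4.53. Over the 11 lists of proteases, other inhibitors and clients, 43 of 77 tested genes were higher and 22 lower, with a median of 1.24, against 38.9% higher and 35.4% lower of all genes. With library totals 55 of the 77 were higher and 14 lower, against 62% and 17.6% of all genes. The genes St14, Tmprss4 and Ctsc, lower with TMM, were then called higher, and Ctsb changed sign without a call.

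**Figure D5:**
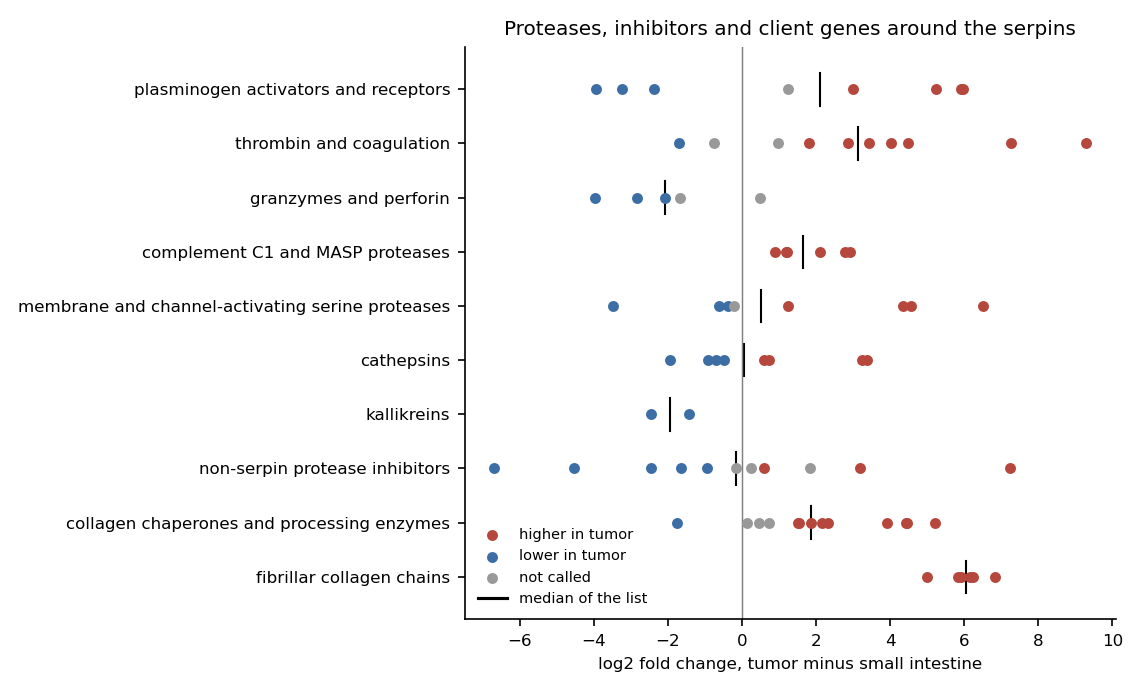
Log2 fold change, tumor minus small intestine, of proteases, other inhibitors and serpin clients, 1 row a list and 1 point a gene, with a bar at each list's median (red higher in tumor, blue lower, grey not called). Fibrillar collagens lie highest with a median of 6.04, and granzymes and perforin lowest with a median of -2.08.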

How the data were processed

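Polyadenylated RNA was sequenced from 4 tumor and 4 small intestine samples, grouped by their tissue label. The authors deposited whole-number read counts per gene, used as deposited, and FPKM values, which are scaled for library size and gene length. FastQC, STAR, Cufflinks 2.2.1, HTSeq 0.6.0 and GRCm38 are named in the submitters' processing notes; what each tool did, the annotation, the strand setting and the handling of multiply matching reads were not stated there. Symbols, gene types and coordinates were matched by Ensembl identifier to a GRCm38 annotation for 42462 of 43629 genes. No 2 libraries agreed within sampling noise.

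Counts of all genes were tested with edgeR 4.0.16 in R 4.3.3 (filterByExpr, TMM, glmQLFit and glmQLFTest, tissue as the only term), with Benjamini-Hochberg adjustment over 17029 genes and a call at an adjusted p under 0.05. Means are ± SD and fold changes ± SE. Genes with 0 counts in a group were given a floor of 3 counts per library. Floors and the 95% intervals cover counting error only, since reads carry no molecular identifiers. The script was tested on simulated data. Called members with a mean of at least 5 CPM in a tissue, 13 in all, are described library by library, except 1 that is not reported here, and scarcer ones by their means, and from each list of partner genes the 3 called genes that changed most and the one that changed most the other way. Members and lists were chosen with earlier results of these data known. Alternatives were DESeq2 1.42.0 and its size factors, library totals, TMM without the 50 most abundant genes, other filters, the replicate number as a blocking term, a required fold of 2, each library left out, and limma 3.58.1 on log2(FPKM + 1) or log2(FPKM + 0.1).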

Additional observations from a re-analysis of the deposited data

Results flagged for a closer look

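Serpina3f was at 27.7 CPM in tumor replicate 4, with the other 3 tumor libraries at 9.02 to 11.4 CPM, a gap of 0.874 of the group's range and above Dixon's 95% critical value for 4 samples. It was the 1 group set apart of 26 tested among the members described in full, where chance sets apart about 1 in 20. The same library was the highest tumor library in 5 of these 13 members and the lowest in 6.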

How the results depend on the processing

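The count of serpin members higher in tumor, 16, ran from 12 to 25 over the alternatives. It left the range of 1.5 times for limma on log2(FPKM + 1) with no filter, which gave 25. The count of lower members, 5, became 9 with no low-count filter, which tests more genes, and 3 with a mean of at least 1 CPM or with limma on log2(FPKM + 1) or log2(FPKM + 0.1), which test fewer. Leaving out each library gave 14 to 17 higher and 5 to 7 lower members. Lower members beyond 5 were ones that the filter of the main fit left out. The count of partner genes lower in tumor, 22, became 14 with library totals, 12 with limma on log2(FPKM + 1) and on log2(FPKM + 0.1), and 14 with limma on log2(FPKM + 1) with no filter, and for these the cause was not tested. Leaving out each library gave 43 to 45 higher and 22 to 23 lower partner genes. Serpinb1c turned to 0.06 with limma on log2(FPKM + 1) with no filter (adjusted p = 0.0833, against 3.49e-05 to 0.0833 over its alternatives), where its deposited FPKM is 0 in small intestine. Of the 21 called members 16 were called under every alternative that gives a value, and Serpina3g, Serpina9, Serpinb1c, Serpinc1 and Serpinf2 were not. Without small intestine replicate 4 Serpind1 has no small intestine count, so its fitted fold then depends on the prior count and is not given. Whether same-numbered libraries share a mouse is not known. Their deviations from the group means correlated at -0.08, -0.13, 0.01 and -0.20, against -0.11 to 0.21 for other pairs. With 4 libraries a tissue, these values can neither show nor exclude a shared mouse. With the replicate block 16 members were higher and 8 lower. Of the 30 members tested in the main fit, 29 kept the same result and Serpinf2 lost its call. The further lower members were ones that the filter of the main fit left out. With no filter 19 members were higher and 9 lower, and low counts limit what can be said of the 31 members that the filter left out.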
